A study of Homo sapiens with 4 samples.

Results

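POU5F1-retaining cells at day 6 were cells of H9, a human embryonic stem cell line, that still held RNA of the pluripotency factor POU5F1 (OCT4) and none of the floor plate factor FOXA2 on the 6th day of a protocol towards dopaminergic neurons. Single cells were profiled by 10x Chromium sequencing of transcript 3′ ends, in which each unique molecular identifier (UMI) counts 1 captured RNA molecule. A POU5F1-retaining cell had at least 4000 UMIs, at least 1000 genes, at most 20% mitochondrial UMIs, 3 or more POU5F1 UMIs and no FOXA2 UMI. There were 1041 among 5372 wild-type cells at day 6, or 19.4% (18.3 to 20.5), and 740 among 4419 SIRT1 knockout cells, or 16.7% (15.7 to 17.9). They were thus 1781 of 9791 day 6 cells and of 22599 cells in the whole series. Ranges in parentheses are exact 95% intervals of a share, level or ratio and take in counting error alone. They were compared with the 2562 wild-type and 1987 knockout cells of the same day 6 libraries in which no POU5F1 UMI was found, called POU5F1-negative cells here, and with day 0 cells of the same genotype (5533 wild type, 7275 knockout).

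The 4 groups were wild-type and Sirtuin 1 deletion H9 cells at day 0, undifferentiated, and at day 6, all of them grown on Geltrex in mTeSR1 medium before differentiation and detached with TrypLE. Each group was 1 library. No difference below has a replicate check and no test was made, because cells of 1 library are not replicates of a condition. The labels do not say whether the knockout was 1 clone, or whether the cultures were handled in parallel.

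POU5F1, NANOG and SOX2 are transcription factors that bind regulatory DNA together and hold human embryonic stem cells in the primed pluripotent state, and POU5F1 is switched off when cells take on a neural fate. The miR-302/367 microRNAs and several long non-coding RNAs are made mainly in pluripotent cells and are lost with it. Protocols towards midbrain dopaminergic neurons commonly block BMP and NODAL signals and activate WNT and Hedgehog signalling, which brings up FOXA2 in floor plate progenitors.

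The sequences bear on the host transcript of those microRNAs and on promoters of genes that were higher in POU5F1-retaining cells. MIR302CHG (chr4:112646476-112650051, minus strand, GRCh38) carries the miR-302/367 cluster, and its mature microRNAs are printed from RefSeq (GRCh38.p14) with the seed, bases 2 to 8, in capitals.
hsa-miR-302a-3p: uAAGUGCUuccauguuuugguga
hsa-miR-302b-3p: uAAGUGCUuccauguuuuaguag
hsa-miR-302c-3p: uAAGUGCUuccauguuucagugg
hsa-miR-302d-3p: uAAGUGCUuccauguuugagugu
hsa-miR-367-3p: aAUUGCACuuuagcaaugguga
The 4 miR-302 sequences share the seed AAGUGCU and differ after it, while miR-367 has the seed AUUGCAC. They lie between 112647877 (miR-367) and 112648511 (miR-302b) of chromosome 4, within the host transcript. The counts measure that host transcript and not the mature microRNAs. It is annotated as antisense to another gene, and the sources used here do not give whether the counting used strand.

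Promoters were searched on both strands for ATGCAAA, the core of the octamer that POU factors bind, and for a joined element that contains it, the SOX-binding letters CATTGT, any base and then the core. The 250 bases before the RefSeq start are printed 5′ to 3′ on the gene's strand, with the match in capitals.
NANOG (chr12:7789152-7789401, plus strand): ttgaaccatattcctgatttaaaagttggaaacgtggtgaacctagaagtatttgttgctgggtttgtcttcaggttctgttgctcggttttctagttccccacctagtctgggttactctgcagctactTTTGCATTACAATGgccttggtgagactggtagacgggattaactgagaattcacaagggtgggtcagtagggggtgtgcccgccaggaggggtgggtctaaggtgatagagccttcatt
MIR302CHG (chr4:112650052-112650301, minus strand): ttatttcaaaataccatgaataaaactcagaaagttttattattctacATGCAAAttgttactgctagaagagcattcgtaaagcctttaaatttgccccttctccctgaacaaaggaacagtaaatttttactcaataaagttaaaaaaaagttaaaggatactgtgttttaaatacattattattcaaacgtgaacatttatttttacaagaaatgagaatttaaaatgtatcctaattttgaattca
SFRP2 (chr4:153789084-153789333, minus strand): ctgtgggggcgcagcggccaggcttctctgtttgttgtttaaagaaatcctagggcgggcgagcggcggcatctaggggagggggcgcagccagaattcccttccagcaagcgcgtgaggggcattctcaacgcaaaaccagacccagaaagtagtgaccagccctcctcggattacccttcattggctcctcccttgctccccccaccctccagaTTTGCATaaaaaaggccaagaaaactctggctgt
The NANOG window held the joined element on the reverse strand, beginning 120 bases before the start. MIR302CHG held the core 202 bases before its start, and SFRP2, a secreted WNT antagonist, held it on the reverse strand 34 bases before. In windows of 300 bases, 250 before to 50 after the start, the core was found in 1567 of 35116, or 4.46%, and the joined element in 3, or 0.00854%. Counted per gene, with a match in any of its windows, the core was found in 1489 of 27305 genes, or 5.45%. Among genes measured in both day 6 libraries the core was found in 220 of the 6440 with a window in the table, or 3.42%, of 7944 measured. Of the 175 genes higher in POU5F1-retaining cells of both libraries, 124 had a window and 14 of these held the core, or 11.3%. Of the 268 genes lower in both, 202 had a window and 11 held it, or 5.45%. A match describes the letters of a window and not a bound site.

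The members held a median of 5 POU5F1 UMIs in wild type and 7 in the knockout, with highest values of 21 and 48. Of the wild-type members 587 had 5 or more, 115 had 10 or more and 2 had 20 or more, and of the knockout members 526, 251 and 55. These counts move with depth, since median totals were 10987 UMIs in wild-type and 16540.5 in knockout members, against 7474 and 11478 in POU5F1-negative cells. Scaled to the total, POU5F1 (chr6:31164337-31180731, minus strand) stood at 490 counts per 1000000 UMIs of the summed cells (CPM) in wild-type and 489 CPM in knockout members, against 838 and 911 CPM at day 0. The gene has near-identical copies elsewhere in the genome, so part of its count is uncertain. POU5F1 and FOXA2 chose the cells, and their values are a description. The same rule took 92.6% of wild-type and 93.4% of knockout cells at day 0. Between members and negatives stood 1484 wild-type (27.6%) and 1234 knockout (27.9%) cells with 1 or 2 POU5F1 UMIs, and another 285 (5.31%) and 458 (10.4%) had 3 or more POU5F1 UMIs together with FOXA2.

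**Figure D1:**
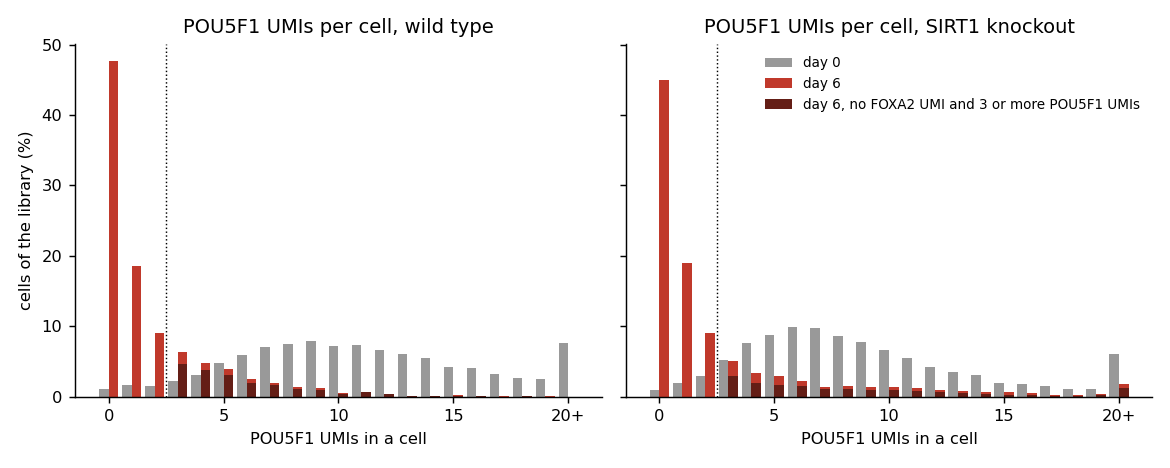
POU5F1 UMIs per cell (horizontal axis, 20 or more in the last bar) as a percent of the cells of each library (vertical axis), at day 0 and day 6, one panel per genotype; dark bars are the POU5F1-retaining cells and the dotted line the limit of 3 UMIs. Day 0 cells spread over high counts, while day 6 cells pile up at 0 and fall away without a gap at the limit.

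The levels of several genes differed across the limit. Just inside it, with exactly 3 UMIs, stood 252 wild-type and 129 knockout members, and just outside, with 2 UMIs and no FOXA2, 339 and 198 cells. NANOG stood at 35.7 CPM just outside and 63.6 CPM just inside in wild type, and at 12.4 and 15.9 CPM in the knockout. The RNA ESRG stood at 14.7 and 41.2 CPM in wild type and at 1.88 and 4.25 CPM in the knockout. SAT1, a polyamine-degrading enzyme, stood at 388 and 362 CPM in wild type and at 812 and 500 CPM in the knockout. The intervals did not overlap for NANOG and ESRG in wild type (ESRG 10.8 to 19.4 and 33.6 to 50.0) and for SAT1 in the knockout (778 to 847 and 468 to 533), and they overlapped in the other 3 cases.

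Depth and quality were compared between the members and the negative cells. With every cell thinned to 4000 UMIs, members held a median of 1580 genes in wild type and 1770 in the knockout, against 1633 and 1753 in negative cells. Medians of mitochondrial UMIs were 2.15% and 1.86% in members and 1.93% and 1.501% in negative cells. Doublet scores in the highest range were found in 2.88% and 3.11% of members, against 3.04% and 1.76% of negative cells. Free RNA, taken from barcodes with 1 to 50 UMIs, held POU5F1 at 195 CPM in the wild type and 193 CPM in the knockout. If it made up 10% of a cell's UMIs, it would give 0.214 and 0.319 POU5F1 UMIs at the members' median depth. The libraries shared 5 to 18 cell barcodes pairwise. A value that moved with membership in the knockout was the share of UMIs from chromosome 20, where FOXA2 also lies. It was below 2.6% in 79.6% of knockout members and 57.0% of knockout negative cells, against 4.90% and 3.43% in wild type. Members made up 21.3% (19.8 to 22.9) of the knockout cells below 2.6% and 9.19% (7.62 to 10.96) of those at 3% or more. The rule bears on this gap, since FOXA2 UMIs were found in 38.7% and 67.1% of these classes. With FOXA2 ignored, cells with 3 or more POU5F1 UMIs made up 31.1% and 19.95%. Of knockout negative cells without FOXA2, 68.9% had a share below 2.6%. The part of the chromosome 20 share in the differences was not tested. Within the low class alone 13 of 20 measured core pluripotency genes were called higher in knockout members than in negative cells, and 1 lower.

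The label was checked against the other 4 pluripotency markers. Their summed level (NANOG, DPPA4, L1TD1 and ESRG) was 543 CPM (530 to 556) in wild-type members and 117 CPM in negative cells, and 840 CPM (824 to 856) and 178 CPM in the knockout, against 1573 and 1282 CPM at day 0. With all cells thinned to 4000 UMIs, 43.6% of wild-type and 56.2% of knockout members held 2 or more of the 4, against 4.61% and 8.25% of negative cells and 90.3% and 88.1% of day 0 cells. All 4 were found in 1.54% and 1.22% of members and in 9.25% and 8.33% of day 0 cells. None of the 4 was found in 21.04% and 11.6% of members. The members as a group thus held the markers that the label names, at levels below day 0 and unevenly from cell to cell.

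Markers of other cell types were summed in the same way, and lay above or below negative cells depending on the list. The primordial germ cell list summed to 24.3 CPM in wild-type and 16.3 CPM in knockout members, against 19.0 and 16.4 CPM in negative cells, with SOX17 at 0 in members of both and NANOS3 at 0 in wild type. TFAP2C, a factor of germ cells, trophoblast and surface ectoderm, stood at 15.1 CPM in wild-type members against 2.81 CPM in negative cells, 5.37-fold (3.98 to 7.32) higher, with 6.40 CPM at day 0 and 4.96 CPM in knockout members. The mesendoderm list summed to 6.195 and 5.87 CPM with TBXT at 0, and the endoderm list to 5.46 and 7.93 CPM with SOX17 and GATA4 at 0. Amnion genes stood at 0.734 and 0.305 CPM and floor plate genes other than FOXA2 at 6.44 and 3.51 CPM. Midbrain-hindbrain genes summed to 4.48 and 40.6 CPM, against 11.2 and 63.4 CPM in negative cells. Endothelial genes summed to 9.78 CPM (8.11 to 11.7) in wild-type members, above the 3.48 CPM (2.73 to 4.37) of negative cells, and to 15.3 against 17.2 CPM in the knockout. Neural progenitor markers summed to 30.7 CPM in wild-type and 144 CPM in knockout members, against 55.2 and 198 CPM in negative cells. Neural crest genes stood at 43.3 and 34.5 CPM, with TFAP2B at 0 in both, and mesenchyme genes at 295 and 59.5 CPM against 417 and 141 CPM in negative cells. Neuron markers stood at 76.5 and 62.7 CPM against 69.7 and 61.6 CPM. Keratins and other surface ectoderm markers were abundant in both kinds of cell, with 1525 and 803 CPM in members and 1387 and 678 CPM in negative cells.

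Within the day 6 libraries, POU5F1-retaining cells held more RNA of NANOG, ESRG, DPPA4, L1TD1, UTF1, the miR-302/367 host transcript and the long non-coding RNA LNCPRESS1 than negative cells, and less of the WNT antagonist DKK1, the growth factor BMP4, SAT1, COL2A1 and FN1. Measured genes were those at 10 CPM or more in either sum of cells, and a gene was called higher or lower where the ratio was at least 1.5-fold with an interval excluding 1. In wild type 336 of 8202 measured genes were called higher, 4.1 percent, and 709 lower, 8.64 percent. In the knockout 317 of 8805 were called higher, 3.6 percent, and 476 lower, 5.41 percent. Scaling by trimmed means in place of totals shifted all log2 ratios by 0.10 in wild type and 0.02 in the knockout, and then gave 428 higher and 471 lower in wild type. Of the 7944 genes measured in both libraries, 175 were called higher in both, which was 67.1% of the 261 of wild type and 63.2% of the 277 of the knockout. Called lower in both were 268, or 40.0% of 670 and 73.0% of 367, and 4 genes were called in opposite directions. LINC01405, a non-coding RNA, was higher in wild type and lower in the knockout, and ID2, RNASE1 and APELA were lower in wild type and higher in the knockout. APELA, a peptide hormone of embryonic stem cells named here after its values were seen, stood at 20.6 against 49.0 CPM in wild type and at 27.9 against 12.8 CPM in the knockout. Its calls held under every alternative tried, while those of the other 3 genes did not. Against negative cells without FOXA2, LINC01405 was higher in the knockout, with a log2 ratio of 0.86, ID2 was called in neither direction there, and RNASE1 in neither direction in wild type.

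Of 26 core pluripotency genes, POU5F1 left out, 20 were measured in wild type, and 10 of these were called higher and 2 lower. In the knockout 13 of 21 were called higher and 1 lower. The list's median log2 ratio was 0.81 in wild type and 1.19 in the knockout, beside -0.09 and -0.01 over all genes. NANOG (chr12:7787794-7799141), the homeobox factor that acts with POU5F1, stood at 62.0 CPM in wild-type members and 11.5 CPM in negative cells, 5.38-fold (4.65 to 6.25) higher. In knockout cells the levels were 28.4 and 3.54 CPM, 8.04-fold (6.35 to 10.3) higher. UTF1, a chromatin factor of undifferentiated cells, stood at 80.4 against 5.38 CPM in wild type and at 17.2 against 0.772 CPM in the knockout. DPPA4, a chromatin-associated protein of pluripotent cells, stood at 249.7 CPM against 65.2 CPM in wild type and at 373 against 101 CPM in the knockout. L1TD1, an RNA-binding protein derived from a retrotransposon, stood at 149 against 37.9 CPM and at 397 against 72.8 CPM. All 4 of these genes were called higher in both libraries, as were DNMT3B, ZFP42, PODXL and VRTN among others. LIN28B, a blocker of let-7 microRNAs, was the 1 listed gene called lower in both, although in wild type not with the trimmed-mean scaling.

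SOX2 set itself apart from its partners POU5F1 and NANOG. It stood at 422 CPM in wild-type members and 404 CPM in negative cells, and at 454 and 473 CPM in the knockout. The ratios were 1.05 (1.01 to 1.08) and 0.959 (0.930 to 0.990), and SOX2, which also marks neural progenitors, was called in neither direction. LIN28A, an RNA-binding protein of stem and progenitor cells, had ratios of 0.932 and 1.13 and was likewise in neither direction.

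The long non-coding RNAs ESRG and LNCPRESS1 were among the genes with the highest ratios in both libraries. ESRG (chr3:54632122-54639857, minus strand, annotated inside an intron of another gene), a transcript of human pluripotent cells, stood at 82.3 CPM in wild-type members and 2.48 CPM in negative cells, 33.2-fold (25.1 to 44.8) higher. Knockout members and negative cells held 42.2 and 0.813 CPM, 51.9-fold (33.3 to 85.6) higher. LNCPRESS1 (chr7:101299578-101301346), a p53-repressed RNA of pluripotent cells that holds the deacetylase SIRT6 off chromatin, stood at 116 against 7.67 CPM in wild type, a ratio of 15.2 (12.9 to 18.0). In the knockout it stood at 93.3 against 1.91 CPM, a ratio of 48.9 (36.5 to 66.9). MIR302CHG, whose microRNAs are printed above, stood at 515 against 123.5 CPM, a ratio of 4.17 (3.98 to 4.36), and in the knockout at 535 against 52.8 CPM, a ratio of 10.1 (9.56 to 10.8). Of the 10 listed non-coding RNAs of pluripotent cells 4 were measured in each library, and these 3 were called higher in both. The fourth, MEG3, an imprinted RNA, was called lower in both, at 1.55 against 11.6 CPM and 0.762 against 10.9 CPM.

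PLA2G2A (chr1:19975431-19980416, minus strand), a secreted phospholipase, had the highest ratio in both libraries of the genes the ranking named. It stood at 94.8 CPM in wild-type members and 1.19 CPM in negative cells, 79.6-fold (53.7 to 124) higher, and at 41.8 and 0.569 CPM in the knockout, 73.4-fold (43.4 to 135) higher. Its UMIs lay in 294 of 1041 wild-type and 198 of 740 knockout members, and the richest single member held 3.70% and 5.29% of them. TUBB2A, a β-tubulin whose near-identical copy TUBB2B makes its count uncertain, stood at 1112 against 157 CPM and at 412 against 46.4 CPM, ratios of 7.09 and 8.88. CD9, a tetraspanin on the surface of human embryonic stem cells, stood at 172 against 31.8 CPM and at 169.8 against 25.2 CPM, ratios of 5.42 and 6.73. VAT1L, SEPHS1, a selenophosphate synthetase paralogue, and the unnamed transcripts AC006329.1 and AC022140.1 were also among the 12 highest with ratios between 4.44 and 9.49.

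The ratios above weigh cells chosen by a count, and deeper cells reach 3 UMIs more easily. When 30% of each cell's UMIs chose the members and the other 70% were measured, ESRG was 10.7-fold and NANOG 3.19-fold higher in wild type. The same split gave 44.8-fold and 6.5025-fold in the knockout. The sizes were smaller than above, and no direction among these genes turned. The split used a lower POU5F1 limit, its negative cells could hold POU5F1 in the other 70%, and it did not even out depth. With negative cells weighted to the members' depth, 302 genes were called higher and 830 lower in wild type. In the knockout these counts were 265 and 506. With the negative cells limited to those without FOXA2, 1301 in wild type and 926 in the knockout, 12 of 20 and 13 of 21 core pluripotency genes were called higher. Over all genes, 305 of 8099 were then called higher and 491 lower in wild type, 3.77% and 6.06%. In the knockout 320 of 8774 were called higher and 431 lower, 3.65% and 4.91%. Of the lower calls against all negative cells, 414 of 709 in wild type and 301 of 476 in the knockout were kept. The part of the FOXA2 limit in the low side was not tested further.

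On the low side, DKK1 (chr10:52314296-52318042), a secreted WNT antagonist and itself a WNT target, stood at 1.71 CPM in wild-type members and 34.6 CPM in negative cells, 20.2-fold (13.1 to 32.9) lower. In the knockout it stood at 2.90 and 50.5 CPM, 17.4-fold (12.6 to 24.7) lower. LINC00261, a non-coding neighbour of FOXA2 on chromosome 20, stood at 3.99 against 80.3 CPM and at 4.73 against 62.8 CPM, and the choice of cells without FOXA2 bears on it. DKK1, PROX1 and FN1 were with LINC00261 among the 10 leading genes of wild-type cluster 5, described below, where FOXA2 stood at 218 CPM. PROX1, FN1 and LINC00261 were likewise among those of knockout cluster 3, with FOXA2 at 222 CPM. The part of the FOXA2 limit in the low values of these genes was not tested. BMP4, a growth factor that opposes neural fate, stood at 7.42 against 91.9 CPM in wild type, 12.4-fold (10.0 to 15.5) lower. In the knockout it stood at 4.73 against 34.9 CPM, 7.38-fold lower, but at 6.94 CPM in negative cells without FOXA2, where it was no longer called. SAT1 stood at 262 against 1599 CPM and at 357 against 2507 CPM, 6.096-fold (5.88 to 6.32) and 7.02-fold (6.81 to 7.23) lower.

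The other 8 of the 12 lowest included growth factors, receptors and matrix genes. DLK1, a transmembrane Notch-family ligand, stood at 19.3 against 116 CPM in wild type and 18.6 against 165 CPM in the knockout. IGFBP5, which binds insulin-like growth factors, stood at 41.7 against 302 CPM and at 105 against 612 CPM. COL2A1, a fibrillar collagen, stood at 17.9 against 168 CPM and at 50.5 against 273 CPM. FN1, fibronectin, stood at 62.5 against 278 CPM and at 17.0 against 132 CPM. ZBTB16, PROX1, S1PR3 and LIX1 were between 4.52-fold and 11.2-fold lower. ZBTB16 and PROX1 are transcription factors of progenitor cells, and S1PR3 is a sphingosine phosphate receptor. Matrix and adhesion genes moved both ways, with 3 of 21 called higher and 4 lower in wild type and 2 of 19 higher and 4 lower in the knockout. SPP1 was called higher in both libraries, at 354 against 93.7 CPM and 23.6 against 7.72 CPM.

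Pathway genes differed in direction within their lists. Of the WNT targets, 2 of 11 measured were called higher and 5 lower in wild type (median log2 ratio -0.20), and 1 of 10 higher and 6 lower in the knockout (-0.77). AXIN2, which targets β-catenin for degradation and is a common WNT readout, stood at 7.01 against 32.0 CPM in wild type and at 15.1 against 28.7 CPM in the knockout. NKD1, an intracellular WNT antagonist, stood at 14.7 against 76.4 CPM and 33.7 against 83.4 CPM. WLS, the carrier of secreted WNT proteins, stood at 19.6 against 77.3 CPM and 27.5 against 74.5 CPM. SP5, a zinc-finger WNT target of pluripotent cells, was the gene called higher in both, at 99.4 against 41.96 CPM and 92.3 against 32.9 CPM.

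Hedgehog targets were called lower in 3 of 4 measured genes in wild type and 4 of 6 in the knockout, and higher in 0, with medians of -1.12 and -0.92. FOXA2 is itself on this list and was left out of the counts. Members held no FOXA2 UMI by the rule, while 1261 of 2562 wild-type and 1061 of 1987 knockout negative cells held one. The part of that limit in these calls was not tested. PTCH1, the Hedgehog receptor and target, stood at 26.2 against 68.4 CPM in wild type and at 92.2 against 194 CPM in the knockout, while day 0 cells held 11.3 and 10.2 CPM. Of the Notch genes 1 was called higher and 5 lower of 11 in wild type, and 2 higher and 4 lower of 11 in the knockout. HEY1, a Notch target, stood at 1.14 against 10.6 CPM and 2.13 against 12.8 CPM, and fell below the measured range against negative cells without FOXA2. Of BMP and ID genes 1 was called higher and 5 lower of 9 in wild type, and 1 higher and 3 lower of 7 in the knockout. ID1, a BMP target that blocks basic helix-loop-helix factors, stood at 94.2 against 201 CPM and 24.7 against 37.4 CPM. In the knockout ID1 was not called lower with the trimmed-mean scaling.

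Neural progenitor genes were called lower in 6 of 11 measured in wild type and 5 of 13 in the knockout, with 1 and 0 called higher and medians of -0.61 and -0.36. PTN, a heparin-binding growth factor of radial glia, stood at 109 against 236 CPM in wild type and at 502 against 986 CPM in the knockout. VIM, an intermediate filament protein, stood at 1930 against 3667 CPM and at 1568 against 3449 CPM, and in the knockout was not called against negative cells without FOXA2. Primed pluripotency genes, which are largely shared with early neural ectoderm, were called higher in 6 and lower in 4 of 13 in wild type, and higher in 5 and lower in 0 of 13 in the knockout. SFRP2, THY1, DNMT3B and PTPRZ1 were among those higher in both. SFRP2 stood at 405 against 98.8 CPM and 583 against 117 CPM, and THY1, a surface glycoprotein of embryonic stem cells, at 83.2 against 31.0 CPM and 143 against 38.2 CPM. Of 13 naive pluripotency genes 0 were measured.

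Of p53 targets 2 of 22 were called higher in wild type and 8 of 22 in the knockout, and 0 lower in either, with medians of 0.08 and 0.35. With negative cells limited to those without FOXA2 the knockout count was 5 higher and 1 lower, and with knockout cluster 2, described below, left out it was 4 and 1. PMAIP1, a pro-apoptotic protein, stood at 110 against 35.1 CPM in wild type and 92.9 against 14.0 CPM in the knockout, while day 0 cells held 203 and 168 CPM. GDF15, a stress cytokine, stood at 190 against 84.9 CPM and 58.2 against 22.8 CPM. Of 52 genes of G2 and M phase, all measured, 0 were called higher in either library and 2 and 0 lower. Of S phase genes 2 of 33 were called higher and 2 lower in wild type, and 2 of 37 higher and 0 lower in the knockout. Glycolysis genes were called in 2 of 24 in wild type, both higher, and in 0 of 24 in the knockout. ETV4, an FGF-response factor, was called higher in both, at 142 against 73.7 CPM and 106 against 60.7 CPM, as was MYC, at 36.8 against 20.9 CPM and 18.9 against 8.98 CPM.

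The levels moved stepwise with POU5F1 across all day 6 cells, FOXA2-holding cells included, and not only at the limit. Cells were thinned to 4000 UMIs and split by POU5F1 UMIs into 0 (3412 wild-type and 2980 knockout cells), 1 (1101 and 783), 2 (442 and 314), 3 to 4 (349 and 263) and 5 to 7 (63 and 75). The 5 wild-type and 4 knockout cells with more are left out of these steps because they are so few. ESRG stood at 7.51, 28.5, 59.2, 109 and 131 CPM in that order in wild type and at 2.16, 11.5, 36.0, 71.6 and 123 CPM in the knockout. NANOG stood at 18.3, 41.7, 61.2, 73.1 and 74.3 CPM in wild type and at 5.68, 17.6, 27.3, 38.4 and 56.6 CPM in the knockout. Both genes thus stood higher at each of these steps than at the one before, although for NANOG in wild type the last (55.3 to 97.7) did not differ from the one before (64.7 to 82.2) beyond counting error. In the 5 and 4 cells with more UMIs ESRG stood at 191 CPM (91.4 to 351) for the wild type and, for the knockout, at 99.1 CPM (39.9 to 204). MIR302CHG stood at 178, 395, 515, 540 and 469 CPM in wild type, lower again in the last step, and at 117, 308, 483, 579 and 725 CPM in the knockout. SAT1 ran the other way, from 1375 to 265 CPM in wild type and from 2237 to 306 CPM in the knockout. SOX2 ran from 411 to 370 CPM in wild type and from 476 to 420 CPM in the knockout, and was highest among these steps at 3 to 4 UMIs in wild type, 460 CPM, and at 0 in the knockout. The 5 wild-type cells with more held 553 CPM (370.3 to 794).

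**Figure D2:**
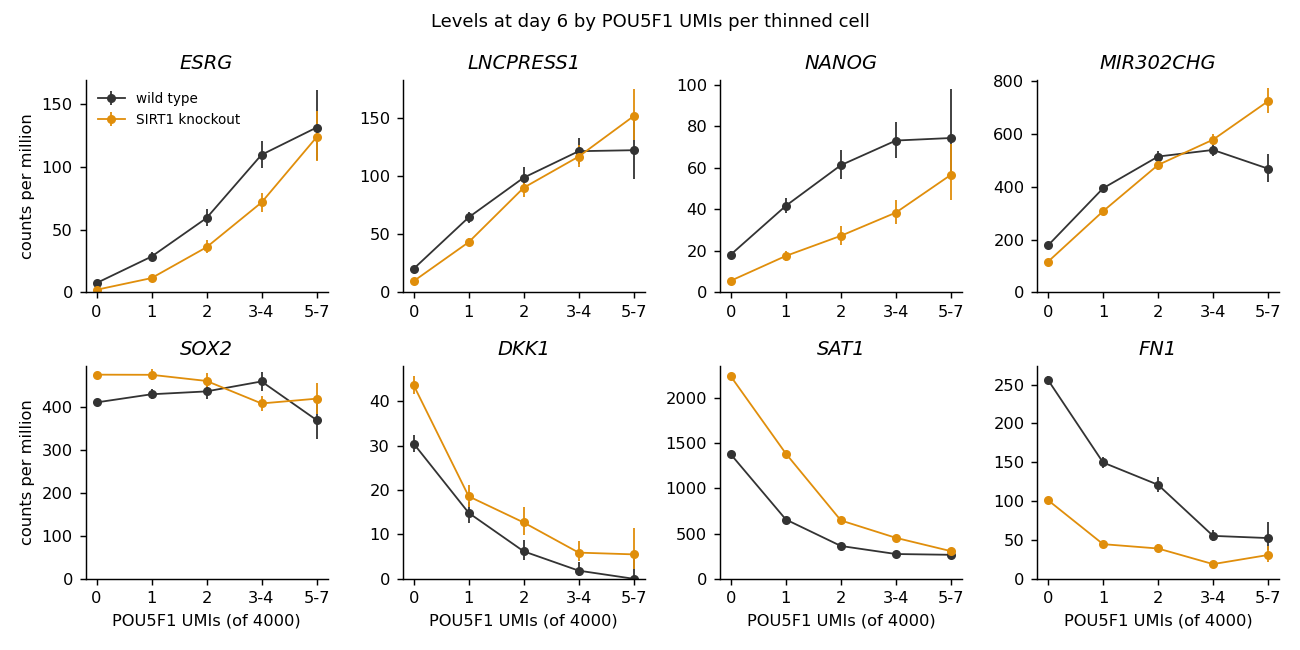
Level in CPM (vertical axes, each from 0) of named genes in day 6 cells grouped by POU5F1 UMIs among 4000 (horizontal axis), 1 line per genotype, with bars for 95% counting intervals. ESRG climbs from 7.51 to 131 CPM in wild type and from 2.16 to 123 CPM in the knockout, while SAT1 comes down in both.

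Genes found in 5% or more of the thinned cells of each library, 6694 in all, were ranked by how closely their levels followed POU5F1 from cell to cell. The rank used the smaller of the libraries' Pearson correlations over 5372 wild-type and 4419 knockout cells thinned to 4000 UMIs. Genes found in fewer cells could not enter, however closely they followed POU5F1. The correlations are a description without a test, since the cells of each set share a library. TMSB4X, an actin-binding peptide, came first with 0.447 in wild type and 0.445 in the knockout, then TUBB2A with 0.425 and 0.405, MIR302CHG with 0.385 and 0.460, and SFRP2 with 0.360 and 0.386. AC006329.1, CD9, TUBB2B, LNCPRESS1, SEPHS1 and DPPA4 followed, the last with 0.269 and 0.319. TMSB4X stood at 4988 CPM in wild-type members and 2078 CPM in negative cells, and at 7159 and 3100 CPM in the knockout. SFRP2 and MIR302CHG are genes whose promoters are printed above, where only promoters with a match are shown. SEPHS1 also held the core motif, on the reverse strand 116 bases before its start. For TMSB4X, TUBB2A, AC006329.1, CD9, LNCPRESS1 and DPPA4 no match was found or no window was available. Of the 12 genes highest within day 6, 8 had a window and 3 of these held the core.

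Shares of cells with a UMI were taken on cells thinned to 4000 UMIs. NANOG was found in 19.98% of wild-type members, 3.67% of negative cells and 17.2% of day 0 cells, and in 9.59%, 1.51% and 15.6% in the knockout. Without thinning NANOG was found in 41.8% of wild-type and 31.5% of knockout members. ESRG was found in 20.9% of wild-type members and 67.3% of day 0 cells, and in 11.8% and 68.2% in the knockout, with 0.859% and 0.201% of negative cells. In wild type the members' share with NANOG was thus close to that at day 0, and their share with ESRG far below it. L1TD1 was found in 40.2% of wild-type members and 92.7% of day 0 cells, and in 68.9% and 83.8% in the knockout. DPPA4 was found in 56.5% and 77.8% in wild type and in 68.2% and 79.9% in the knockout.

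Most members lay in 1 cluster in each library, which they shared with other cells. Each day 6 library was clustered by itself without POU5F1 and FOXA2. In wild type 580 members, 55.7% (52.6 to 58.8), lay in cluster 1, where they were 37.3% of its 1557 cells and which also held 15.5% of the negative cells. It was led by KCNF1, SPP1, ANXA1 and SFN and met no cell type's marker rule. POU5F1, NANOG and ESRG were at least 2-fold higher in it than in the other cells. It missed the rule for pluripotent-like cells because no such marker was among its 10 leading genes. Another 208 members lay in cluster 4, led by FABP7, NEFM and PTN, 161 in cluster 3, led by mitotic genes such as NEK2 and KIF20A, and 80 in cluster 6, led by metallothioneins. Cluster 5, led by PROX1, LINC00261 and DKK1 among others, held 1 member among its 1043 cells and 30.7% of the negative cells. In the knockout 470 members, 63.5% (59.9 to 67.0), lay in cluster 2, which met the rule for pluripotent-like cells, and were 59.1% of its 795 cells. It held 0.906% of the negative cells and was led by PLA2G2A, ESRG, LNCPRESS1 and NANOG. The next largest number, 98, lay in cluster 1, led by metallothioneins, and the other 172 were spread over 6 clusters. The clusters were made from these cells' own genes, so the leading genes are a description. At lower and higher resolutions the leading cluster held 78.1% and 30.5% of members in wild type and 74.9% and 43.6% in the knockout. At the higher resolution 3 wild-type clusters of 555, 631 and 255 cells were 57.1%, 50.4% and 52.5% members, and 3 knockout clusters of 532, 203 and 155 cells were 60.7%, 51.2% and 50.3% members.

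**Figure D3:**
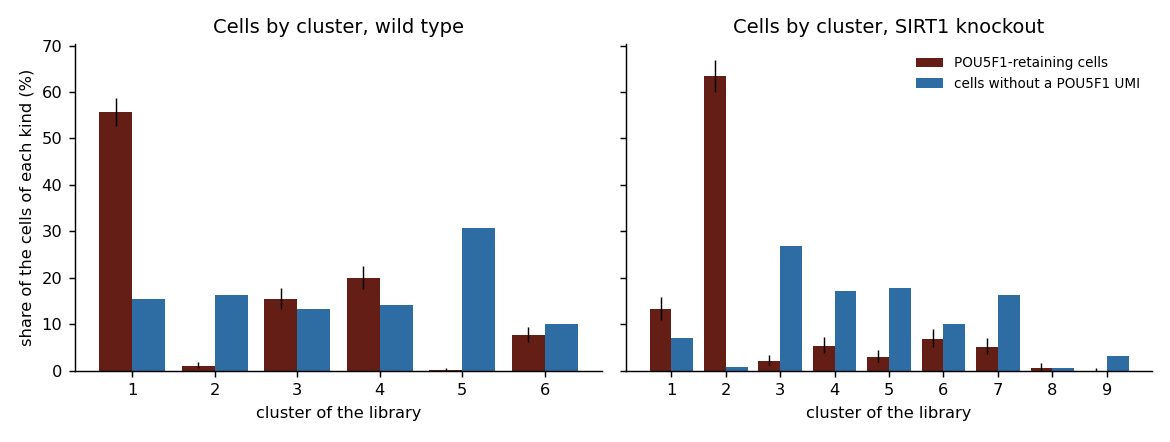
Percent of POU5F1-retaining cells and of POU5F1-negative cells (vertical axis) in each cluster of the library (horizontal axis), 1 panel per genotype, with 95% counting intervals on the members' bars. In wild type 55.7% of members lie in cluster 1 beside 15.5% of negative cells, and in the knockout 63.5% lie in cluster 2 beside 0.906%.

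Members of different clusters were unlike each other. The knockout members of cluster 2 held ESRG at 56.1 CPM, NANOG at 34.7 CPM and LNCPRESS1 at 117 CPM. Those of knockout clusters 4, 6 and 7 held ESRG at 0, 0 and 1.87 CPM, and PTN at 1439, 1377 and 1400 CPM. In wild type the members of cluster 1 held ESRG at 88.8 CPM and SPP1 at 482 CPM, and those of cluster 4 held 47.5 CPM of ESRG and 108 CPM of SPP1 but 773 CPM of MIR302CHG. The other 325 cells of knockout cluster 2, outside the rule, held ESRG at 43.6 CPM, NANOG at 39.3 CPM and POU5F1 at 423 CPM. With knockout cluster 2 left out of the members, 8 of 19 core pluripotency genes were called higher and 2 lower in the knockout. UTF1, DNMT3B, TERF1, USP44 and ZSCAN10 then lost their calls, as did AXIN2 and PTN on the low side, while NANOG, ESRG and DKK1 kept theirs.

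Against day 0, POU5F1-retaining cells held much less RNA of most other pluripotency genes in both genotypes, while SOX2 was higher and NANOG differed between the genotypes. In wild type 850 of 9214 measured genes were called higher, 9.23 percent, and 3746 lower, 40.7 percent. In the knockout 917 of 9178 were called higher, 9.99 percent, and 1658 lower, 18.1 percent. The median log2 ratio of all genes was -0.41 in wild type and -0.10 in the knockout. The trimmed-mean scaling shifted the ratios by 0.41 and 0.11 and gave 1921 higher and 1778 lower in wild type, and 1236 and 1239 in the knockout. Of 22 measured core pluripotency genes 16 were called lower and 2 higher in wild type, and 15 lower and 2 higher in the knockout, with medians of -0.95 and -0.89. With that scaling the counts were 11 lower and 4 higher, and 13 lower and 3 higher. Negative cells, set against the same day 0 cells, had 18 and 16 of 22 lower with medians of -2.09 and -2.44. These comparisons share the day 0 cells.

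**Figure D4:**
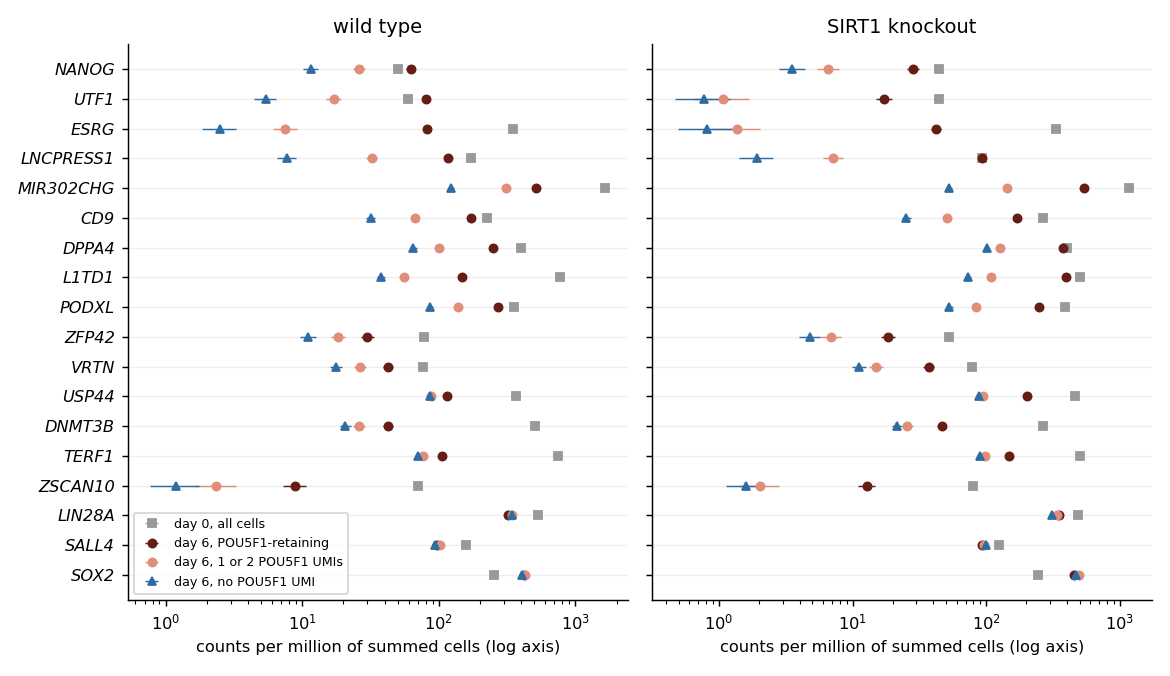
Levels in CPM (horizontal axis, log scale) of 18 pluripotency-associated genes in day 0 cells, POU5F1-retaining cells and POU5F1-negative cells of day 6, 1 panel per genotype, with 95% counting intervals. NANOG of wild-type members sits at 62.0 CPM beside 50.5 CPM at day 0, DNMT3B sits far below day 0 in both panels, and SOX2 sits above it.

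NANOG stood at 62.0 CPM in wild-type members and 50.5 CPM at day 0, a ratio of 1.23 (1.13 to 1.33) that was called in neither direction. In the knockout it stood at 28.4 and 44.0 CPM, 1.55-fold (1.39 to 1.73) lower. UTF1 stood at 80.4 and 59.8 CPM in wild type, a ratio of 1.34, and in the knockout at 17.2 and 44.2 CPM, 2.57-fold (2.24 to 2.95) lower. The reverse held for L1TD1, at 149 and 771 CPM in wild type, 5.19-fold (4.95 to 5.44) lower, and at 397 and 500.4 CPM in the knockout, 1.26-fold lower and in neither direction by the rule. DPPA4 stood at 249.7 and 401 CPM in wild type, 1.61-fold lower, and at 373 and 404 CPM in the knockout. Whether these genotype differences would recur in other libraries cannot be told with 1 library each. Several of these calls also depend on scaling. The trimmed-mean scaling raises the log2 ratios by 0.41 in wild type, which takes NANOG and UTF1 past 1.5-fold higher and brings DPPA4 within 1.5-fold. In the knockout the rise of 0.11 brings NANOG within 1.5-fold.

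TDGF1 had the deepest loss of the measured core genes in both libraries, and DNMT3B came next in wild type. TDGF1 (CRIPTO, chr3:46574534-46582463), the co-receptor of NODAL, stood at 5.95 CPM in wild-type members and 261 CPM at day 0, 43.8-fold (34.8 to 55.9) lower. In the knockout 11 UMIs gave 0.839 CPM against 172 CPM at day 0, 205-fold (115 to 412) lower. With cells thinned to 4000 UMIs, a TDGF1 UMI was found in 2.21% of wild-type members against 61.3% of day 0 cells. In the knockout 0 of 740 thinned members held one, which allows up to 0.405% of members with a UMI at that depth (3 cells), against 45.1% of day 0 cells. Without thinning 10 members, 1.35% (0.65 to 2.47), held one, against 69.8% at day 0. DNMT3B, the de novo DNA methyltransferase on chromosome 20, stood at 42.4 and 502 CPM in wild type, 11.8-fold lower, and at 46.3 and 268 CPM in the knockout, 5.78-fold lower.

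ESRG stood at 349.7 CPM at day 0 in the wild type and 334 CPM in the knockout, so members were 4.25-fold (3.99 to 4.53) and 7.92-fold (7.28 to 8.63) lower. MIR302CHG stood at 1644 and 1179 CPM at day 0, 3.19-fold and 2.20-fold above the members. LNCPRESS1, at 172 and 92.5 CPM at day 0, was within 1.5-fold in both. TERF1, a telomere-binding protein, was 7.01-fold and 3.38-fold lower, ZSCAN10, a zinc-finger factor, 7.99-fold and 6.24-fold, and USP44, a histone H2B deubiquitinase, 3.19-fold and 2.31-fold. FOXD3, a forkhead factor, had 0 UMIs in wild-type members and 1 in knockout members, against 9.0025 and 5.56 CPM at day 0. SOX2 stood at 253 CPM at day 0 in the wild type and 243 CPM in the knockout, and members were 1.67-fold (1.61 to 1.72) and 1.87-fold (1.81 to 1.92) higher.

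Among all genes, those highest against day 0 in both genotypes included WNT and stress-response genes. The ranking did not ask whether negative cells changed too, and at the levels given earlier SP5 was above day 0 in them as well. SP5 stood at 99.4 CPM in wild-type members and 2.19 CPM at day 0, 45.3-fold (38.4 to 53.8) higher, and at 92.3 and 3.54 CPM in the knockout, 26.1-fold (22.8 to 29.9) higher. LGI1, a secreted neuronal protein, was 25.4-fold and 32.0-fold higher. JUN, an immediate early transcription factor, stood at 272 and 9.89 CPM and at 188 and 14.7 CPM. TXNIP, which binds thioredoxin and limits glucose uptake, was 18.5-fold and 8.01-fold higher, and RHOB, a small GTPase, 19.1-fold and 7.996-fold. PAPPA, ARRDC3, ZEB2 and IER5L were also among the 10 highest with ratios from 8.07 to 16.7. PLA2G2A, at 13.9 and 12.6 CPM at day 0, was 6.84-fold (6.29 to 7.45) and 3.31-fold (2.97 to 3.68) higher in members than at day 0.

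On the low side against day 0 stood non-coding RNAs and epithelial genes. FOXD3-AS1 stood at 0.326 CPM, 4 UMIs, in wild-type members and 106 CPM at day 0, 325-fold lower, and was 99.7-fold lower in the knockout. LINC00678, a non-coding RNA of stem cells, was 29.2-fold and 246-fold lower. ESRP1, an epithelial splicing factor, stood at 4.73 and 64.9 CPM in wild type, 13.7-fold lower, and at 0.534 and 54.6 CPM in the knockout, 102-fold lower. CLDN7, a tight-junction claudin, was 10.5-fold (8.51 to 13.2) lower in wild type, and in the knockout 3 UMIs against 32.7 CPM at day 0 gave a fold of 143 (48.8 to 693). GPR176, C9orf135, MAP7, FLT1 and TRNP1 were also among the 10 lowest. Of 9 measured surface ectoderm and epithelial genes 6 were called lower in wild type and 7 in the knockout, with medians of -1.95 and -2.80. The keratins and other surface ectoderm markers summed earlier overlap with this list, and a sum does not show the direction of each gene. Their sum was 1525 CPM in wild-type members and 1001 CPM at day 0, and 803 and 858 CPM in the knockout. EPCAM, an adhesion protein of epithelia and embryonic stem cells, stood at 65.4 and 253 CPM in wild type and at 25.1 and 175 CPM in the knockout.

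Metabolic lists were higher than at day 0 in both genotypes, and few glycolysis genes were called between members and negative cells within day 6. Of 24 glycolysis genes 18 were called higher and 2 lower in wild type and 16 higher and 1 lower in the knockout, with medians of 1.06 and 0.69. Of hypoxia-response genes 13 of 14 and 12 of 15 were called higher and 0 lower, with medians of 1.67 and 1.11. VEGFA, a vascular growth factor, stood at 54.6 CPM in wild-type members and 22.8 CPM at day 0, and at 52.0 and 23.7 CPM in the knockout. P4HA1, a collagen prolyl hydroxylase, stood at 181 and 46.1 CPM and at 245 and 81.5 CPM. In negative cells, against the same day 0 cells, the hypoxia list had medians of 1.52 and 1.22. S phase genes were called lower in 30 of 39 and higher in 0 in wild type, median -1.08, and lower in 5 and higher in 3 of 38 in the knockout, median -0.17. With the trimmed-mean scaling 20 of 38 were lower in wild type.

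Knockout members were set against wild-type members at day 6, a comparison of 1 library with another. These member sets also differed in the chromosome 20 share, with medians of 3.22% in wild type and 2.32% in the knockout. Differences that go with SIRT1 and with that share cannot be told apart here. SIRT1, the targeted gene, stood at 37.7 CPM in members of the wild type and 10.2 CPM in those of the knockout, 3.69-fold (3.03 to 4.502) lower, and at 32.3 and 7.11 CPM at day 0. Of 8597 measured genes 2080 were called higher in knockout members, 24.2 percent, and 421 lower, 4.9 percent, with a median log2 ratio of 0.30. With the trimmed-mean scaling, a shift of -0.26, these counts were 864 and 824, so most of the excess of higher calls went with the scaling. Scaled to totals and with genes of chromosome 20 left out, 2064 of 8342 genes were called higher and 377 lower. Of 21 core pluripotency genes 3 were called higher in the knockout members and 5 lower, median 0.13. L1TD1 was 2.67-fold (2.53 to 2.82) higher. UTF1 was 4.66-fold (4.03 to 5.41) lower, NANOG 2.18-fold (1.92 to 2.48), ESRG 1.95-fold (1.76 to 2.17), OTX2, a forebrain homeobox factor, 1.83-fold and ZFP42, a zinc-finger factor, 1.63-fold. USP44 was called higher, but not with the trimmed-mean scaling.

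Several genes that differed most between the members of each genotype also differed between their negative cells. GBX2, a hindbrain homeobox factor, stood at 37.4 CPM in knockout and 3.67 CPM in wild-type members, 10.2-fold (7.497 to 14.1) higher, and at 41.7 and 6.91 CPM in negative cells. PTN stood at 502 and 109 CPM in members, and at 986 and 236 CPM in negative cells. FABP7, a fatty acid binding protein of radial glia, stood at 113 and 16.5 CPM in members, and at 133 and 23.1 CPM in negative cells. NFE2L3, a stress-response transcription factor, stood at 50.9 and 8.64 CPM in members and at 9.84 and 3.05 CPM in negative cells, with 98.7 and 104 CPM at day 0. KLHL4, PPP3CA, ST6GALNAC5, MAPK10, MAP2 and DAB1 were also among the 10 highest with ratios from 4.25 to 7.99.

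Of 21 matrix and adhesion genes 9 were called lower in knockout members and 2 higher, with a median of -0.39 beside 0.30 over all genes. SPP1 was among these 9. SPP1, osteopontin, stood at 23.6 CPM in knockout and 354 CPM in wild-type members, 15.0-fold (13.4 to 16.9) lower, and at 7.72 and 93.7 CPM in negative cells. S100A6, a calcium-binding protein, stood at 2.59 and 55.2 CPM in members and at 3.82 and 68.1 CPM in negative cells. ANXA1, a phospholipid-binding annexin, was 31.6-fold (18.2 to 59.9) lower, and SFN, an epithelial 14-3-3 protein, 24.3-fold (14.0 to 46.3). ANKRD1, a YAP target, stood at 17.8 and 188 CPM in members and at 52.4 and 371 CPM in negative cells. LINC01405, AC022706.1, KCNJ2 and EMP1 were between 9.69-fold and 53.7-fold lower. H3.Y, a histone variant, met the same rule, but 312 of its 315 UMIs in wild-type members lay in 1 cell.

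List counts between the genotypes moved with scaling. Primed pluripotency genes were called higher in knockout members in 10 of 13 and lower in 0, and in 4 and 0 with the trimmed-mean scaling. S phase genes were called higher in 23 of 37 and lower in 0, and in 11 and 0 with that scaling. Of p53 targets 1 of 22 was called higher and 8 lower, median -0.38, and 1 and 13 with that scaling. CDKN1A, the cell-cycle inhibitor p21, stood at 103 CPM in knockout and 326 CPM in wild-type members, with 64.8 and 45.1 CPM at day 0.

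Cells with 3 or more POU5F1 UMIs and FOXA2 RNA as well, which the rule leaves out, stood between members and negative cells in some genes and beside the members in others. NANOG stood in them at 72.6 CPM in the wild type and 29.1 CPM in the knockout, and ESRG at 46.9 and 34.3 CPM. LINC00261 stood at 35.6 and 43.6 CPM and DKK1 at 13.6 and 19.4 CPM, above the members in both libraries. Their median depth was 13345 and 19575 UMIs, and 14.4% and 10.9% had doublet scores in the highest range, against 2.88% and 3.11% of members. The part of doublets in these cells was not tested.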

How the data were processed

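RNA was measured in 4 libraries of H9 cells, 1 per group. Deposited tables gave whole-number UMI counts for each gene and barcode, without normalisation. Per the submitters' processing notes, they were made with Cell Ranger 6.1.2 on GRCh38. The sources used here do not give the use of introns or strand. Genotype and day came from the labels.

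Cells were barcodes with at least 4000 UMIs, 1000 genes and at most 20% mitochondrial UMIs. They held 51424092 to 73451883 UMIs per library, with medians of 8367 to 13169 per cell. The only cells left out by the last limit were 2, in wild type at day 0. Doublets were kept, because Scrublet's automatic threshold called 0 cells, and the highest scores, 0.8% per 1000 cells, were counted and left out in an alternative. The members, the 32 gene lists, the alternatives and the rules were chosen with earlier results of these data known.

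Counts were summed over cells and scaled to 1000000 UMIs. Ratios have exact conditional binomial 95% intervals and shares exact binomial (Clopper-Pearson) ones. They cover counting error only and compare libraries, not conditions. Log2 ratios used a prior count of 0.5. The 12 highest and 12 lowest genes within day 6 were named by the smaller of both libraries' ratios at 20 CPM or more. Against day 0 and between genotypes 10 each way were named, with up to 5 genes per list, all measured core pluripotency genes and the 10 genes most like POU5F1 among those in 5% or more of cells. A few genes named by these rules are left out of the text. Clustering used 2000 variable genes, 30 components, 15 neighbours and Leiden resolution 0.5. A cluster took a cell type's name only with 3 markers at least 2-fold higher, 1 of them among its 10 leading genes. Chromosome 20 shares had limits of 2.6% and 3%, set after the data were seen, as were the alternatives that use them or that leave out the cluster with most members or a gene's richest cell. Gene positions came from GENCODE release 29. Calculations were made with Python 3.11.15, scanpy 1.11.5, scipy 1.17.1 and, for trimmed-mean factors, edgeR 4.0.16 (R 4.3.3), and were tested on simulated data.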

Additional observations from a re-analysis of the deposited data

Results flagged for a closer look

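In 8 genes the wild-type and knockout libraries were called in opposite directions. Within day 6 all genes measured in both libraries were searched, but against day 0 only the genes named by the rules above. The 8 are thus not a count over all genes. The differences were not tested, and each direction rests on 1 library. Within day 6, LINC01405, a non-coding RNA, had a log2 ratio of members to negative cells of 0.68 in wild type and -0.84 in the knockout. The reverse was seen for ID2, which blocks bHLH factors, at -0.69 and 0.72, for the peptide hormone APELA at -1.25 and 1.12, and for the secreted ribonuclease RNASE1 at -1.23 and 2.02.

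The other 4 genes differed against day 0. DAB1, an adaptor of reelin signalling, had log2 ratios of -0.99 in wild-type and 1.04 in knockout members. FABP7, the radial glia lipid carrier, had -0.98 and 2.79. FN1, fibronectin, had 1.96 and -1.41. NEFL, a neurofilament protein, had 0.61 and -0.68.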

How the results depend on the processing

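Of 138 alternative values of counts and shares, 74 stayed within 1.5 times or 1 interval and 64 did not. Of 3693 called gene values, 3506 kept their call. Counts are given as higher and lower calls, for within day 6 in wild type, within day 6 in the knockout, against day 0 in wild type, against day 0 in the knockout, and knockout against wild-type members. With no lower limit on CPM they were 961 and 1962, 1020 and 1539, 1783 and 7722, 1969 and 4081, and 3840 and 1073. At 50 CPM or more they were 114 and 146, 110 and 110, 396 and 1080, 377 and 450, and 486 and 160. At 2-fold they were 141 and 203, 134 and 147, 420 and 1919, 316 and 595, and 531 and 198. With trimmed-mean factors the lower calls within wild type were 471, those against day 0 in wild type 1921 and 1778, and those between genotypes 864 and 824.

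The share of members was 25.7% in wild type and 21.2% in the knockout at 2 POU5F1 UMIs, 10.9% and 11.9% at 5, 14.4% and 12.7% on cells thinned to 4000 UMIs with a limit of 2, and 24.7% and 27.1% with FOXA2 ignored. It was 22.3% in wild type among cells of 6000 UMIs or more. Unthinned shares, members and then negative cells, were for NANOG 41.8% and 7.42% in wild type and 31.5% and 3.67% in the knockout, for DPPA4 84.9%, 36.7%, 94.3% and 63.5%, for L1TD1 66.8%, 24.2%, 92.6% and 49.5%, and for ESRG 39.7%, 1.41%, 25.0% and 1.01%. The leading cluster held 78.1% and 74.9% at resolution 0.3 and 30.5% and 43.6% at resolution 1. The cause of these moves was not tested, apart from the counts that fewer or more genes tested give.

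Single genes turned in 7 cases. H3.Y within wild type had log2 ratios of -0.11 at 5 POU5F1 UMIs, -5.16 with 30% of UMIs choosing the cells, -2.52 without the leading cluster and -0.50 without its richest cell. COL2A1 against day 0 in wild type was -0.28 with free RNA subtracted, and LINC01405 within the knockout was 0.86 and RNASE1 within wild type 0.17 against negative cells without FOXA2. No paired analysis was possible because each group was 1 library. Depth limits the low genes most: 11 TDGF1 UMIs and 3 CLDN7 UMIs stand behind the knockout values.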

Other observations

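The counts of H3.Y, a primate histone variant, came almost wholly from 1 wild-type member. That cell of 11642 UMIs and 2918 genes held 312 H3.Y UMIs, 2.68% of its RNA, while the other 5371 wild-type day 6 cells held 13 in 10 cells. The same cell held 17 UMIs of the phosphatase gene ALPG, 3 of TRIM43, 3 of TAF11L11 and 2 each of PRAMEF8 and FRG2C, genes that were at 0 to 8 UMIs over the other cells together. It held 0 UMIs of ZSCAN4, LEUTX and DUXA, 3 of POU5F1 and 1 of NANOG. Its doublet score was 0.09998 against a library median of 0.0667. The most H3.Y UMIs in a single cell were 1 and 54 at day 0, wild type first, and 12 in the knockout at day 6. The cell was named after its values were seen.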
